A study of Caenorhabditis elegans with 4 samples.

Results

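The genes described here are 40 genes of synaptic release, transmitter synthesis and transport, and neuronal structure, taken by their WormBase names from a table of read counts for 20392 genes. All 40 names were found in the table and all 40 passed the filter on low counts. The counts come from total RNA of first-stage (L1) larvae of the nematode Caenorhabditis elegans, with 2 libraries from lsm-8 mutants and 2 from wild type (N2 Bristol). The mutants are of strain GW1125, labelled lsm-8-/-, whose allele xe17 sits on chromosome IV and holds a red marker (myo-2 promoter, mCherry, unc-54 3' UTR). That strain keeps the allele over nT1[qIs51], a green-marked translocation of chromosomes IV and V used as a balancer. Larvae of both genotypes hatched for 16 h without food, were sorted for L1 size and the absence of green, and were fed again for 2.5 h before RNA extraction. The comparison asks which transcripts differ when the gene for LSM-8, the subunit that defines the nuclear LSM2-8 ring, is mutated. It belongs to work on how nuclear RNA is degraded by LSM2-8 and XRN-2. How much LSM-8 protein remained in these larvae is not known here.

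At a synapse, vesicles are filled with transmitter by vesicular transporters, docked and primed at the active zone, and fused with the plasma membrane by SNARE proteins when calcium enters. Neuropeptides take a separate route: they are cut and trimmed from precursors inside dense-core vesicles, which are released away from active zones. Kinesins carry both kinds of vesicle along axonal microtubules, and heterotrimeric G proteins tune release. In C. elegans many of these genes were found through uncoordinated (unc), egg-laying (egl) and touch-insensitive (mec) mutants, and several are expressed in nearly all neurons while others mark a single transmitter class.

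Library totals ran from 50755251 to 101230177 counts, with a mean depth 1.83 times greater in mutants. The lowest count of any of the 40 genes in any library was 269. Levels are given in CPM, the count relative to the library total after TMM scaling. A gene was called changed at an adjusted p under 0.05 in the edgeR quasi-likelihood test over 16771 genes, and folds are mutant over wild type. The targeted gene, lsm-8, stood at 3.25 and 3.73 CPM in the mutant libraries, against 15.4 and 15.9 CPM in the wild-type libraries (log2 fold change -2.17, SE 0.11, edgeR adjusted p = 3.85e-11). Separate cultures are not stated for libraries of the same genotype, so the p-values reflect only how far these 4 samples spread, possibly for technical reasons.

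Of the 40 genes, 16 rose in lsm-8 mutants, 1 fell and 23 were not called. Over all genes tested 13.5% were called higher and 14.8% lower, and over the 9729 genes with at least 5 CPM in 2 libraries, a level that all 40 genes reached, 18.8% were called higher and 20.6% lower. The changes were small: log2 fold changes ran from -0.23 for osm-6 to 0.51 for egl-30, neither of them called, and 0 of the 40 genes differed by more than 1.5-fold. Their median log2 fold change was 0.13 (middle 50% -0.04 to 0.24), against -0.01 over genes of at least 5 CPM. Both mutant libraries lay above both wild-type libraries for 21 of the 40 genes and below them for 8, where 30.9% of all tested genes lay above and 31.9% below (62.8% in either direction). More cells that express a gene and more RNA of it per cell cannot be told apart in whole larvae. Cells other than neurons also contributed RNA to these libraries. The count of genes that rose was 9 when wild type replicate 2 was left out. Every fit that omits a library leaves a single library in that genotype, which is assumed to vary as the other genotype's libraries do, and the calls lost or gained in such fits carry that limit. With library totals in place of TMM scaling, 18 rose and the call of bas-1 was lost. Over all genes, 60.5% of the calls were higher with library totals and 47.7% with TMM scaling. Unc-18, unc-10, unc-17, unc-47, unc-44 and goa-1 were called in every alternative tried.

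**Figure D1:**
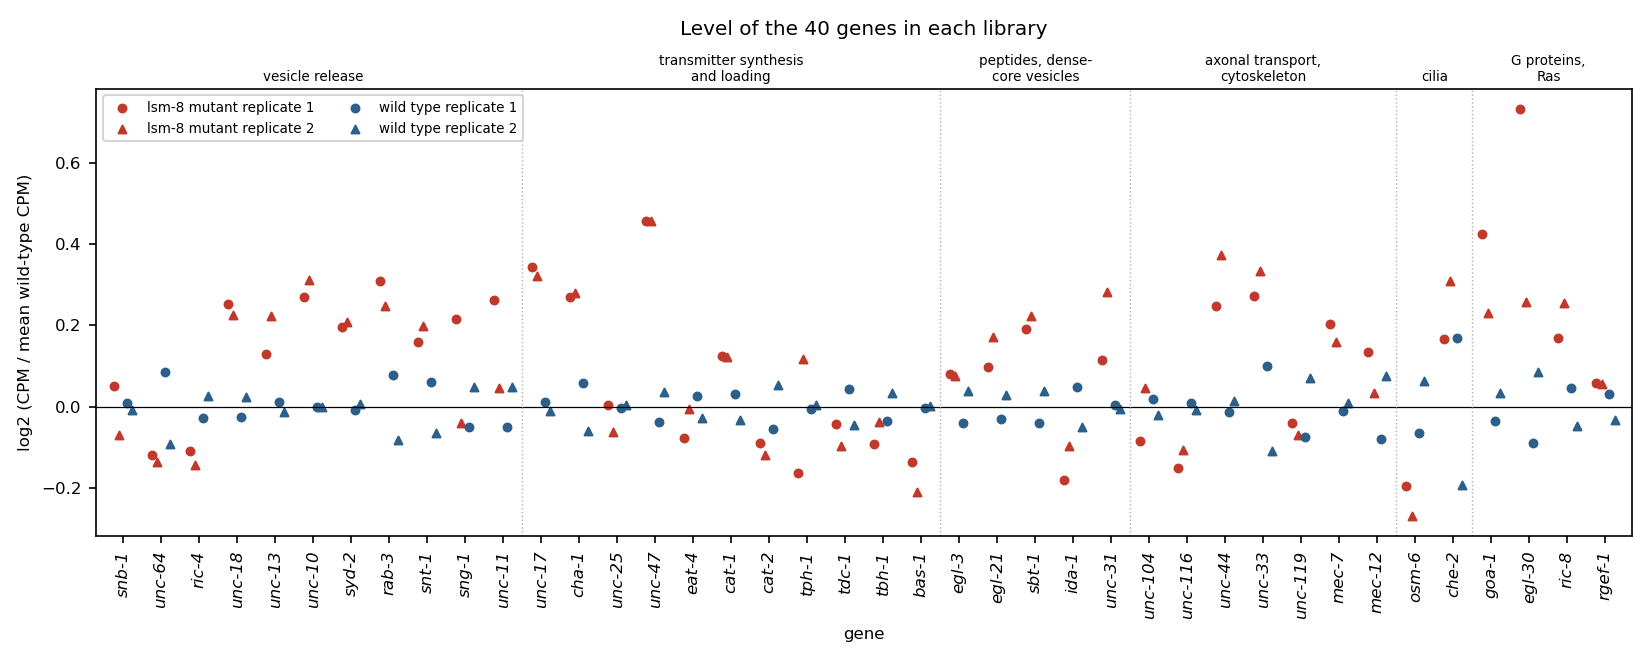
Level of each of the 40 genes in each library as the log2 ratio of its CPM to the mean wild-type CPM, with genes grouped by role (mutant libraries in red, wild-type libraries in blue; circles are replicate 1 and triangles replicate 2). Both mutant libraries lie above both wild-type libraries for 21 genes, and the widest gap between the mutant libraries is that of egl-30.

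Among 11 genes of vesicle release, 6 rose and 5 were not called, where 18.8% of genes with at least 5 CPM were called higher. The widths of those that rose ran from 1261 bases (rab-3) to 6850 bases (unc-13). Those of the others ran from 818 bases (snb-1) to 2079 bases (unc-11), and gene length moved with the changes (below). The gene unc-18 (WBGene00006757, chromosome X) encodes the Sec1/Munc18 protein that binds syntaxin. It had 202 and 198 CPM in the mutant libraries, against 166 and 172 CPM in the wild-type libraries (log2 fold change 0.24, SE 0.06, edgeR adjusted p = 0.00291). For unc-10, which encodes the active zone scaffold RIM, the values were 111 and 115 CPM in the mutant libraries, against 92.5 and 92.5 CPM in the wild-type libraries (log2 fold change 0.29, SE 0.06, edgeR adjusted p = 0.000754). The small GTPase gene rab-3, whose product sits on synaptic vesicles, had 75.1 and 72.1 CPM in the mutant libraries, against 64.1 and 57.3 CPM in the wild-type libraries (log2 fold change 0.28, SE 0.07, edgeR adjusted p = 0.00327). In each of these 3 genes the lower mutant library exceeded the higher wild-type library. The priming factor gene unc-13 had 332 and 355 CPM in the mutant libraries, against 306 and 301 CPM in the wild-type libraries (log2 fold change 0.18, SE 0.06, edgeR adjusted p = 0.0253). The gene syd-2, which encodes the active zone organiser liprin-alpha, stood at 67.4 and 68.0 CPM in the mutant libraries, against 58.5 and 59.2 CPM in the wild-type libraries (log2 fold change 0.20, SE 0.06, edgeR adjusted p = 0.0159). Synaptotagmin, the calcium sensor of fusion, is encoded by snt-1, which had 101.4 and 104.2 CPM in the mutant libraries, against 94.8 and 86.9 CPM in the wild-type libraries (log2 fold change 0.18, SE 0.06, edgeR adjusted p = 0.0344). These 3 rises were the smallest of the 6, and each call was lost without some single library. The call of unc-13 was lost on omitting wild type replicate 1, wild type replicate 2 and mutant replicate 2, each alone (edgeR adjusted p = 0.0807, 0.153 and 0.196), and that of syd-2 on omitting wild type replicate 1 (0.0669) and on omitting mutant replicate 2 (0.0768). Without wild type replicate 2 the calls of snt-1 (0.339) and rab-3 (0.0600) were lost, and without mutant replicate 2 that of snt-1 (0.142). Over all alternatives the adjusted p reached 0.296 for unc-13, 0.116 for syd-2, 0.339 for snt-1 and 0.06 for rab-3.

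None of the 3 genes for the core SNARE proteins was called by edgeR, DESeq2 or limma with all 4 libraries, and 1 of them, ric-4, had an unadjusted edgeR p under 0.05. The vesicle SNARE synaptobrevin, snb-1, had 126 and 115.8 CPM in the mutant libraries, against 122 and 121 CPM in the wild-type libraries, with overlap (log2 fold change -0.01, 95% interval -0.13 to 0.12). The sign of that value depends on the scaling: it was 0.03 with upper quartile scaling and 0.04 with library totals. Syntaxin, unc-64, had 94.97 and 93.9 CPM in the mutant libraries, against 109 and 96.7 CPM in the wild-type libraries (log2 fold change -0.13, 95% interval -0.26 to 0.01, edgeR adjusted p = 0.156). The other plasma membrane SNARE of the complex, ric-4, had 129.6 and 126 CPM in the mutant libraries, against 137 and 142 CPM in the wild-type libraries (log2 fold change -0.13, 95% interval -0.24 to -0.01, edgeR adjusted p = 0.109). For both of these the mutant libraries were the lower ones, and the groups did not overlap. Without wild type replicate 2, unc-64 was called lower (log2 fold change -0.22, edgeR adjusted p = 0.0238, which ran up to 0.81 over the alternatives). Ratios between 2 genes in 1 library do not depend on scaling, and the pairs given here were chosen after the values were seen. The ratio of unc-18 to unc-64 in RPKM (CPM per kilobase of deposited gene width) was 1.15 and 1.14 in the mutant libraries and 0.825 and 0.967 in the wild-type libraries, so the syntaxin-binding protein gene stood higher relative to syntaxin in both mutant libraries. That of snb-1 to unc-64 was 2.58 and 2.40 in the mutant libraries and 2.18 and 2.43 in the wild-type libraries, which overlap. The synaptogyrin gene sng-1, whose product spans the vesicle membrane, had 22.96 and 19.2 CPM in the mutant libraries, against 19.1 and 20.4 CPM in the wild-type libraries, with overlap (log2 fold change 0.09, 95% interval -0.09 to 0.28). The gene unc-11, whose AP180-type clathrin adaptor retrieves synaptobrevin from the membrane, had 52.5 and 45.2 CPM in the mutant libraries, against 42.3 and 45.2 CPM in the wild-type libraries, with the lower mutant library at the level of the higher wild-type library (log2 fold change 0.16, 95% interval 0.00 to 0.31). Unc-11 was called higher without mutant replicate 2 (edgeR adjusted p = 0.0149), and with library totals or the deposited log2 values (0.036 and 0.0442), out of a range up to 0.778.

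The calls are given here by transmitter class, and differences between classes were not tested. Of 11 genes that make or load transmitters, 3 rose, 1 fell and 7 were not called. Of all genes with at least 5 CPM, 18.8% were called higher and 20.6% lower. The 2 cholinergic genes rose. They share a locus on chromosome IV, in which unc-17 lies within cha-1 and both use a common first exon, and they share 66 exon bases in the annotation. The vesicular acetylcholine transporter gene unc-17 (WBGene00006756) had 70.3 and 69.3 CPM in the mutant libraries, against 55.9 and 54.99 CPM in the wild-type libraries (log2 fold change 0.33, SE 0.06, edgeR adjusted p = 0.000321). The choline acetyltransferase gene cha-1 had 40.4 and 40.6 CPM in the mutant libraries, against 34.8 and 32.1 CPM in the wild-type libraries (log2 fold change 0.27, SE 0.07, edgeR adjusted p = 0.00460). The ratio of unc-17 to cha-1 in RPKM was 2.03 and 1.98 in the mutant libraries and 1.86 and 1.99 in the wild-type libraries, and these ranges overlap. Without wild type replicate 2 the call of cha-1 was lost (edgeR adjusted p = 0.0529, the highest over the alternatives).

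Of the 2 genes that define GABA neurons, the transporter rose and the enzyme was not called. The vesicular GABA transporter gene unc-47 (WBGene00006783, chromosome III) had 12.4 and 12.4 CPM in the mutant libraries, against 8.80 and 9.25 CPM in the wild-type libraries. This was the largest called rise among the 40 genes (log2 fold change 0.46, SE 0.09, edgeR adjusted p = 0.00109, or 1.37-fold). The glutamate decarboxylase gene unc-25, which makes GABA in the same neurons, had 81.4 and 77.8 CPM in the mutant libraries, against 80.96 and 81.3 CPM in the wild-type libraries, which overlap (log2 fold change -0.03, 95% interval -0.15 to 0.10). The ratio of unc-47 to unc-25 in RPKM was 0.159 and 0.166 in the mutant libraries and 0.113 and 0.118 in the wild-type libraries, with no overlap. Transcripts of the enzyme were thus more abundant than those of the transporter in all 4 libraries, and by a smaller factor in the mutant ones. The vesicular glutamate transporter gene eat-4 had 49.8 and 52.2 CPM in the mutant libraries, against 53.4 and 51.5 CPM in the wild-type libraries, with overlap between the groups (log2 fold change -0.04, 95% interval -0.17 to 0.09).

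None of the 6 monoamine genes among the 40 was called higher by edgeR. The aromatic amino acid decarboxylase gene bas-1, which completes dopamine and serotonin synthesis, had 56.7 and 53.9 CPM in the mutant libraries, against 62.2 and 62.4 CPM in the wild-type libraries. It was the only one of the 40 genes that fell (log2 fold change -0.17, SE 0.06, edgeR adjusted p = 0.0419), and no omission of a single library left it called (edgeR adjusted p from 0.0543 without mutant replicate 1 to 0.243 without mutant replicate 2). The call was also lost with DESeq2 (0.0686), upper quartile scaling (0.104), library totals (0.154) and the deposited log2 values (0.16). The tyrosine hydroxylase gene cat-2, of dopamine neurons, had 6.02 and 5.89 CPM in the mutant libraries, against 6.16 and 6.63 CPM in the wild-type libraries (log2 fold change -0.10, 95% interval -0.34 to 0.14). The gene tbh-1, whose hydroxylase turns tyramine into octopamine, had 4.92 and 5.12 CPM in the mutant libraries, against 5.12 and 5.38 CPM in the wild-type libraries (log2 fold change -0.06, 95% interval -0.32 to 0.19). For these 2 genes the mutant libraries were the lower ones by small gaps. The vesicular monoamine transporter gene cat-1, which serves all these classes, had 16.4 and 16.4 CPM in the mutant libraries, against 15.4 and 14.7 CPM in the wild-type libraries, with the mutant libraries above (log2 fold change 0.12, 95% interval -0.05 to 0.30). The tryptophan hydroxylase gene tph-1, of serotonin neurons, had 4.96 and 6.02 CPM in the mutant libraries, against 5.54 and 5.58 CPM in the wild-type libraries. The tyrosine decarboxylase gene tdc-1, which makes tyramine, had 29.5 and 28.4 CPM in the mutant libraries, against 31.3 and 29.5 CPM in the wild-type libraries. Values of both genes overlap, and the intervals of their log2 fold changes were -0.28 to 0.25 and -0.22 to 0.08. At about 5 CPM the SE was 0.13 for tph-1 and 0.12 for tbh-1, against 0.06 for unc-18, so the intervals of these scarce transcripts were the wider ones.

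Among 5 genes of neuropeptide processing and dense-core vesicles, 2 rose and 3 were not called, where 18.8% of genes with at least 5 CPM rose. The gene sbt-1 (WBGene00011392, chromosome V) encodes the chaperone of the convertase EGL-3 and had 302 and 309 CPM in the mutant libraries, against 257 and 272 CPM in the wild-type libraries (log2 fold change 0.21, SE 0.06, edgeR adjusted p = 0.00940). The gene unc-31 encodes the dense-core vesicle priming factor CAPS and had 93.2 and 105 CPM in the mutant libraries, against 86.4 and 85.8 CPM in the wild-type libraries (log2 fold change 0.20, SE 0.06, edgeR adjusted p = 0.0239). In both, the mutant libraries lay above the wild-type libraries. The convertase gene egl-3 had 705 and 703 CPM in the mutant libraries, against 648 and 685 CPM in the wild-type libraries (log2 fold change 0.08, 95% interval -0.04 to 0.20). The carboxypeptidase gene egl-21, which trims the cut peptides, had 543 and 571 CPM in the mutant libraries, against 497 and 518 CPM in the wild-type libraries (log2 fold change 0.13, 95% interval 0.01 to 0.26, edgeR adjusted p = 0.0927). Neither was called, although both mutant libraries were higher in each. The gene ida-1, a receptor-type tyrosine phosphatase homolog of dense-core vesicles, had 408 and 432 CPM in the mutant libraries, against 478 and 446 CPM in the wild-type libraries, the reverse order (log2 fold change -0.14, 95% interval -0.26 to -0.01, edgeR adjusted p = 0.0931). The ratio of sbt-1 to egl-3 in RPKM was 1.38 and 1.42 in the mutant libraries and 1.28 and 1.28 in the wild-type libraries, without overlap, and that of egl-3 to egl-21 was 0.859 and 0.813 in the mutant libraries and 0.862 and 0.874 in the wild-type libraries. The call of sbt-1 was lost without wild type replicate 1 (edgeR adjusted p = 0.132) and that of unc-31 on omitting wild type replicate 2 (0.0648) as well as mutant replicate 2 (0.345), and the highest values over the alternatives were 0.132 for sbt-1 and 0.345 for unc-31. Calls were gained for egl-21 without mutant replicate 1 (0.0435) and with upper quartile scaling, library totals and the deposited log2 values (0.0383, 0.0228 and 0.0217), and for ida-1, lower, without mutant replicate 2 (0.0359).

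Of 7 genes of axonal transport and the neuronal cytoskeleton, 3 rose and 4 were not called, where 18.8% of genes with at least 5 CPM rose. The giant ankyrin gene unc-44 (WBGene00006780, chromosome IV) organises axonal microtubules and was the most abundant of the 40 genes by count. It had 2387 and 2604 CPM in the mutant libraries, against 1992 and 2029.6 CPM in the wild-type libraries (log2 fold change 0.31, SE 0.06, edgeR adjusted p = 0.000867). Its width was 23072 bases, and it supplied 31.8% and 33.6% of the summed CPM of the 40 genes in the mutant libraries, against 29.3% and 29.6% in the wild-type libraries. The gene unc-33, which encodes the CRMP homolog that works with ankyrin in axons, had 128 and 133 CPM in the mutant libraries, against 113 and 98.0 CPM in the wild-type libraries (log2 fold change 0.30, SE 0.07, edgeR adjusted p = 0.00201). Both of these genes lie on chromosome IV and their groups did not overlap. The beta-tubulin gene mec-7 of touch receptor neurons had 160.4 and 156 CPM in the mutant libraries, against 138 and 140.3 CPM in the wild-type libraries (log2 fold change 0.18, SE 0.06, edgeR adjusted p = 0.0194). Its alpha-tubulin partner mec-12 had 190.0 and 177 CPM in the mutant libraries, against 164 and 182 CPM in the wild-type libraries, with overlap (log2 fold change 0.09, 95% interval -0.05 to 0.22). How reads of near-identical tubulin genes were shared out is not known. The call of mec-7 was lost on omitting either wild-type library or mutant replicate 1 (edgeR adjusted p = 0.105, 0.0730 and 0.103), and on omitting wild type replicate 2 that of unc-33 (0.0530). The highest values over the alternatives were 0.105 for mec-7 and 0.053 for unc-33.

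Neither motor gene was called in the main edgeR test. Transcripts of unc-104, the kinesin that carries synaptic vesicle precursors, stood at 319 and 348 CPM in the mutant libraries, against 342 and 333 CPM in the wild-type libraries (log2 fold change -0.02, 95% interval -0.14 to 0.11). The kinesin-1 heavy chain gene unc-116 had 223 and 229.8 CPM in the mutant libraries, against 249 and 246 CPM in the wild-type libraries, with both mutant libraries lower (log2 fold change -0.13, 95% interval -0.24 to -0.01, edgeR adjusted p = 0.0908). It was called lower with a correction for gene length (log2 fold change -0.19, edgeR adjusted p = 0.0102, up to 0.339 over the alternatives). The pan-neuronal gene unc-119, needed for axon development, had 16.7 and 16.4 CPM in the mutant libraries, against 16.3 and 18.1 CPM in the wild-type libraries, which overlap (log2 fold change -0.05, 95% interval -0.23 to 0.12). The 2 ciliary genes were scarce and not called. Osm-6, which encodes a subunit of the intraflagellar transport particle, had 5.13 and 4.88 CPM in the mutant libraries, against 5.61 and 6.13 CPM in the wild-type libraries (log2 fold change -0.23, 95% interval -0.48 to 0.02), with the mutant libraries lower. Che-2, another subunit of that particle, had 7.93 and 8.74 CPM in the mutant libraries, against 7.94 and 6.17 CPM in the wild-type libraries, with overlap (log2 fold change 0.24, 95% interval -0.02 to 0.49), and was called higher without wild type replicate 1 (log2 fold change 0.43, edgeR adjusted p = 0.00976, up to 0.785 over the alternatives).

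All 4 genes of G protein and Ras signalling had higher values in both mutant libraries than in both wild-type libraries, and 2 were called. That order held for 30.9% of all tested genes, and 18.8% of genes with at least 5 CPM were called higher. The Go alpha subunit gene goa-1 (WBGene00001648, chromosome I), whose product restrains transmitter release, had 143 and 125 CPM in the mutant libraries, against 103.8 and 109 CPM in the wild-type libraries (log2 fold change 0.33, SE 0.07, edgeR adjusted p = 0.000859). The gene ric-8, which encodes a chaperone and exchange factor for G alpha subunits, had 45.2 and 48.1 CPM in the mutant libraries, against 41.6 and 38.9 CPM in the wild-type libraries (log2 fold change 0.21, SE 0.07, edgeR adjusted p = 0.0216). The Gq alpha gene egl-30, whose product promotes release and opposes goa-1, had 99.5 and 71.6 CPM in the mutant libraries, against 56.3 and 63.5 CPM in the wild-type libraries. Its estimate was the largest of the 40, but the gap between the 2 mutant libraries exceeded that between the lower of them and either wild-type library (log2 fold change 0.51, 95% interval -0.14 to 1.17, edgeR adjusted p = 0.200). On omitting mutant replicate 1 the log2 fold change was 0.26, and on omitting mutant replicate 2 it was 0.73. Fits that omit any single library called it higher, but the spread between the 2 mutant libraries or that between the 2 wild-type libraries is then missing from the fit. Without a block, no alternative that kept all 4 libraries called it (edgeR adjusted p up to 0.28). In the annotation egl-30 shares 93 exon bases on the same strand with C53H9.4, a gene not in the table. The ratio of egl-30 to goa-1 in RPKM was 0.682 and 0.562 in the mutant libraries and 0.532 and 0.571 in the wild-type libraries, which overlap. The Ras exchange factor gene rgef-1, a pan-neuronal marker, had 32.4 and 32.3 CPM in the mutant libraries, against 31.8 and 30.4 CPM in the wild-type libraries (log2 fold change 0.06, 95% interval -0.09 to 0.20). The call of ric-8 did not survive omission of wild type replicate 2, nor of mutant replicate 2 (edgeR adjusted p = 0.156 and 0.182, which is the highest over the alternatives).

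**Figure D2:**
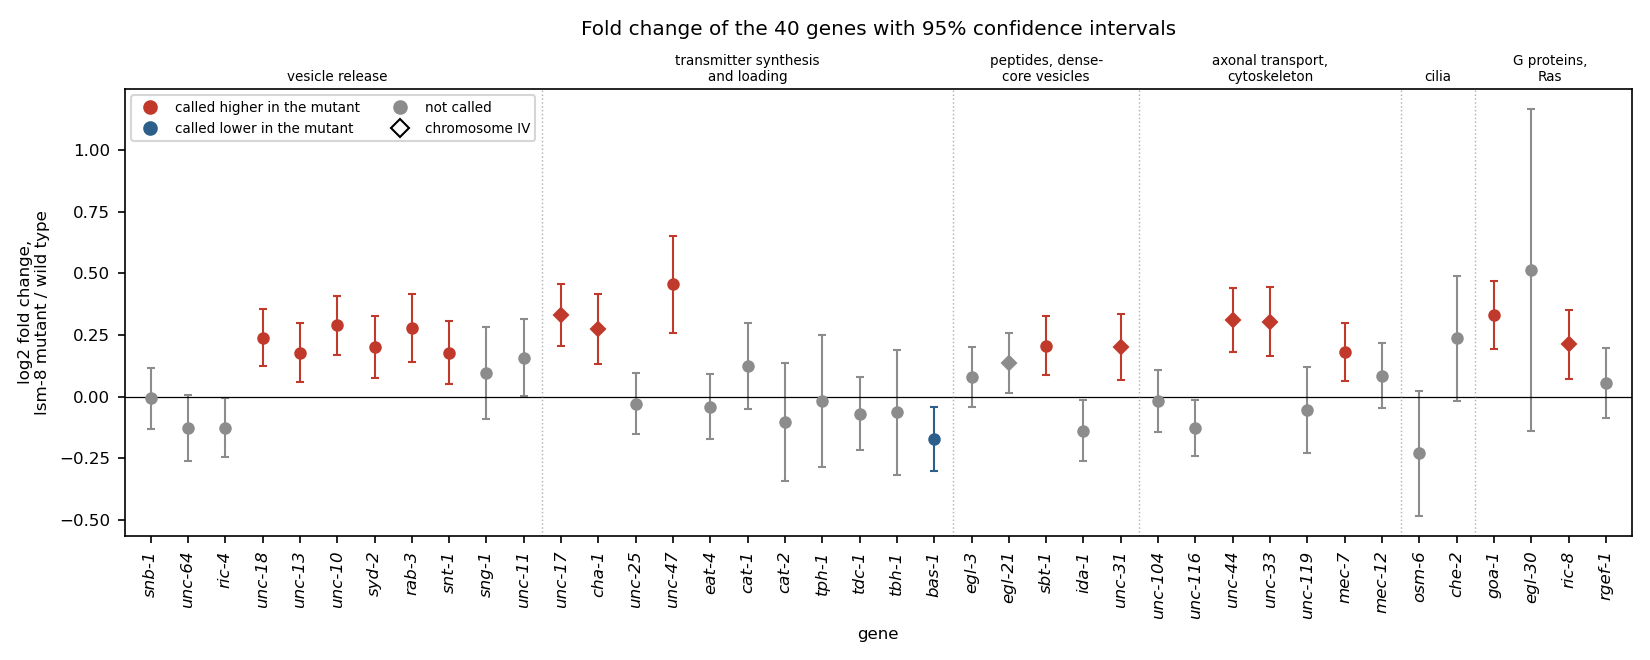
Log2 fold change (mutant over wild type) of each of the 40 genes with its 95% confidence interval from the edgeR fit, grouped by role (red called higher, blue called lower, grey not called; diamonds mark chromosome IV). The called rises lie between 0.18 and 0.46, and the interval of egl-30 is the widest.

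Per length, the 40 genes spanned a wide range of levels. The order of genes in RPKM rests on the deposited width. That width was close to the exon bases of the annotation for unc-17 (1907 against 1922). It was far below them for unc-64 (1595 against 2567) and egl-30 (2097 against 3928). The most abundant in wild type were 3 genes of the neuropeptide pathway, sbt-1, egl-21 and egl-3. Mean levels of sbt-1 were 383 RPKM in mutant and 332 RPKM in wild-type larvae, those of egl-21 were 328 RPKM in mutant and 299 RPKM in wild-type larvae, and those of egl-3 were 274 RPKM in mutant and 259.7 RPKM in wild-type larvae. Ida-1 followed in both genotypes, then snb-1. The RPKM ranges of these 5 genes did not overlap each other within either genotype. The 3 SNARE genes were unequal, with snb-1 at 148 RPKM in mutant and 148 RPKM in wild-type larvae, ric-4 at 110.4 RPKM in mutant and 120.4 RPKM in wild-type larvae, and unc-64 at 59.2 RPKM in mutant and 64.6 RPKM in wild-type larvae. Among genes that load vesicles with transmitter, unc-17 was the most abundant, at 36.6 RPKM in mutant and 29.1 RPKM in wild-type larvae. Eat-4 came next, at 23.4 RPKM in mutant and 24.03 RPKM in wild-type larvae. In wild type cat-1 (8.03 RPKM) stood above unc-47 (5.41 RPKM), and both were lower than eat-4 in every library. The lowest levels were those of tbh-1, che-2, tph-1, cat-2 and osm-6, all between 2.27 and 4.21 RPKM over the 4 libraries. Che-2 and tph-1 overlapped in wild type, so their order there was not resolved, while both mutant libraries held more che-2 than tph-1.

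**Figure D3:**
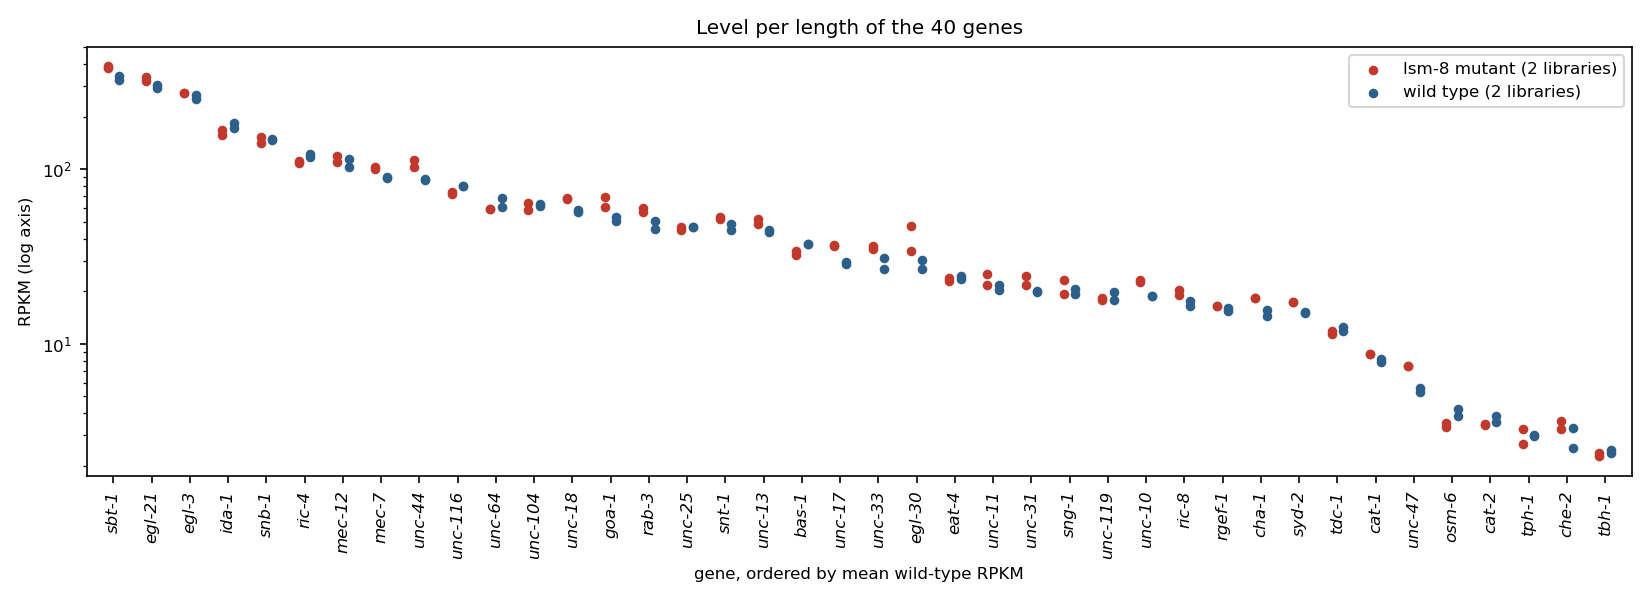
RPKM on a log axis of each of the 40 genes in the 2 mutant libraries (red, left) and the 2 wild-type libraries (blue, right), ordered by mean wild-type level. The 3 neuropeptide processing genes sbt-1, egl-21 and egl-3 lead, and tbh-1 is last.

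Chromosome moved with the changes. All 7 genes on chromosome IV, where lsm-8 lies, had both mutant libraries above both wild-type libraries, and 6 of them rose: unc-17, cha-1, unc-44, unc-33, unc-31 and ric-8. The exception was egl-21. Of the genes with at least 5 CPM, 763 of 1556 on chromosome IV and 3334 of 9729 on all chromosomes lay that way. On that chromosome 31% of genes with at least 5 CPM were called higher and 12.3% lower, with a median log2 fold change of 0.09, against 0.27 for the 7 genes. Of the 33 genes elsewhere, 10 rose and 1 fell, with a median of 0.08, where 16.4% of genes of that level outside chromosome IV were called higher, 22.1% lower and the median was -0.03. For the other chromosomes the shares are over all tested genes, also those below 5 CPM (on chromosome IV 21.8% higher and 9.07% lower). Chromosome X held 8 of the genes and 4 of the rises (unc-18, unc-10, syd-2 and mec-7), where 12.9% of all tested genes of that chromosome were called higher and 15.2% lower. On chromosome I 2 of 4 genes rose (unc-13 and goa-1), where 9.55% were called higher and 17.4% lower. On chromosome II 2 of 6 genes rose (rab-3 and snt-1), where 11.1% were called higher and 16.4% lower. Chromosome III held 9, of which unc-47 rose, bas-1 fell and 7, bas-1 among them, had negative estimates with TMM scaling. The signs of unc-25 and eat-4 turned with library totals. Over all tested genes of chromosome III 9.20% were called higher and 18.4% lower. On chromosome V, which the balancer nT1 also joins, sbt-1 alone of 6 genes rose, with a median of 0.02, where 14.7% of all tested genes were called higher and 14.2% lower. The genotype at lsm-8 and that of linked parts of chromosome IV cannot be told apart in these libraries.

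**Figure D4:**
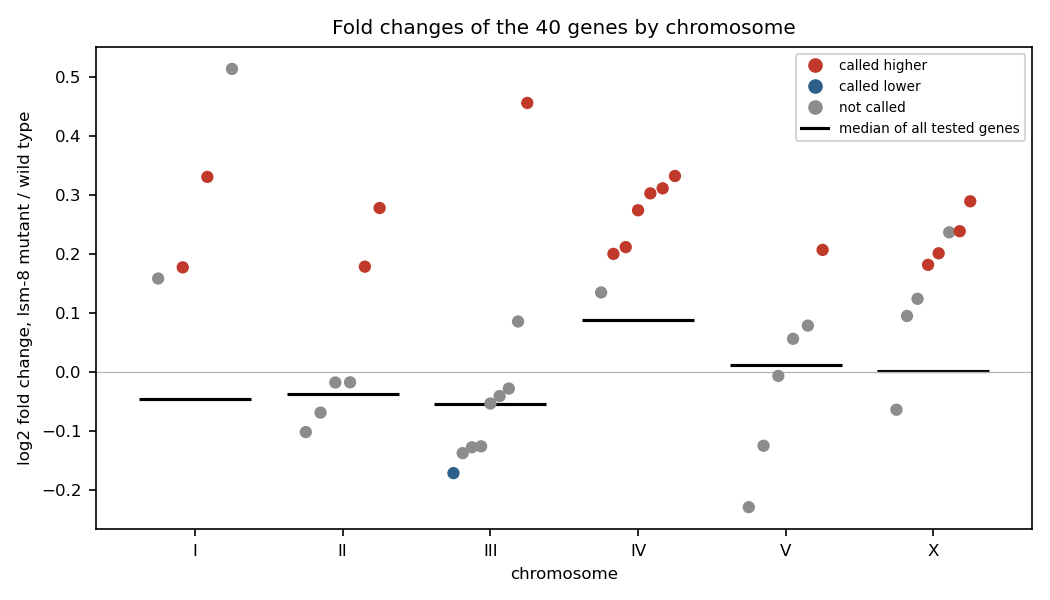
Log2 fold change (mutant over wild type) of the 40 genes by chromosome, 1 point a gene (red called higher, blue called lower, grey not called), with a bar for the median of all tested genes on that chromosome. All 7 points of chromosome IV lie above 0 and above that chromosome's median of 0.09, and 7 of 9 points of chromosome III lie below 0 with TMM scaling.

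Gene length moved with the changes too. The 40 genes were long, with a median width of 2015 bases against 1244 over all tested genes. Over genes of at least 5 CPM the median width was 1541 bases. Of genes that reached 5 CPM, the shortest 20% stood at a median log2 fold change of -0.11, against 0.06 for the longest 20%. In the shortest 20% of them 10.3% were called higher and 29.05% lower, and in the longest 20% 29.03% were called higher and 11.8% lower. Of the 20 longest of the 40 genes 10 rose (median 0.20), and of the 20 shortest 6 rose (median 0.07). With a correction for length 13 of the 40 genes rose and 3 fell, and the median was 0.12. In that fit 12.9% of all tested genes were called higher and 14.2% lower. The calls of unc-13, syd-2 and unc-31 were lost (edgeR adjusted p = 0.296, 0.116 and 0.160), and ida-1 and unc-116 joined bas-1 as lower (0.0219 and 0.0102).

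Of 302 further genes of the same pathways, 301 were tested, 76 (25.2%) rose and 22 (7.31%) fell, and their median log2 fold change was 0.06. Shares over all genes tested were 13.5% higher and 14.8% lower, and over genes with at least 5 CPM 18.8% and 20.6%. In the vesicle cycle 18 of 48 (37.5%) rose and 2 (4.17%) fell. The median width of that list was 2821.5 bases, against 1541 over genes with at least 5 CPM. The BK potassium channel gene slo-1, which limits release, had 118 and 120.1 CPM in mutant and 81.4 and 79.1 CPM in wild-type larvae (log2 fold change 0.57, SE 0.06, edgeR adjusted p = 4.55e-07), and the RIM-binding protein gene rimb-1, an active zone scaffold, had 84.9 and 82.4 CPM in mutant and 59.2 and 56.7 CPM in wild-type larvae (log2 fold change 0.53, SE 0.06, edgeR adjusted p = 1.86e-06). The neuroligin gene nlg-1, an adhesion protein of synapses, fell, with 98.2 and 93.2 CPM in mutant and 125 and 132 CPM in wild-type larvae (log2 fold change -0.42, SE 0.06, edgeR adjusted p = 2.07e-05), as did the synaptophysin homolog gene sph-1 (log2 fold change -0.52, SE 0.07).

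In transmitter synthesis, uptake and breakdown 8 of 31 (25.8%) rose and 4 (12.9%) fell. For this list and the next, 13.5% of all tested genes were called higher and 14.8% lower (18.8% and 20.6% at 5 CPM). The GTP cyclohydrolase gene cat-4, which makes the cofactor of the monoamine hydroxylases, had 34.8 and 39.4 CPM in mutant and 23.6 and 23.1 CPM in wild-type larvae (log2 fold change 0.67, SE 0.07, edgeR adjusted p = 1.57e-06). The phenylalanine hydroxylase gene pah-1, which uses the same cofactor, rose as well (log2 fold change 0.65, SE 0.07). The glutamate transporter gene glt-5 (log2 fold change -0.83, SE 0.09) and vglu-2 (log2 fold change -0.56, SE 0.09) fell. Plasma membrane transporters of transmitters or of their precursors, in whatever cells they act, are named here after their values were seen. Those for GABA (snf-11, log2 fold change 0.55, SE 0.06) and choline (cho-1, log2 fold change 0.31, SE 0.06) rose. The serotonin transporter gene mod-5 (log2 fold change 0.44, SE 0.11) rose too. So did the dopamine transporter gene dat-1 (log2 fold change 0.24, SE 0.09, edgeR adjusted p = 0.0493). Of the 6 glutamate transporters of the list glt-5 fell and the other 5 were not called (log2 fold changes -0.06 to 0.12). The GABA transporter gene snf-11 had 74.2 and 72.0 CPM in mutant and 50.9 and 48.6 CPM in wild-type larvae, without overlap. In neuropeptide processing 6 of 22 rose and 3 fell, among them the neprilysin gene nep-2, a peptidase (log2 fold change 0.33, SE 0.06), and hid-1 (log2 fold change 0.26, SE 0.06), both higher. The amidating enzyme gene pamn-1 (log2 fold change -0.40, SE 0.06) and the furin-like convertase gene kpc-1 (log2 fold change -0.37, SE 0.06) were lower.

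In axonal transport and the cytoskeleton 11 of 42 rose and 3 fell. For this and the next lists, 13.5% of all tested genes were called higher and 14.8% lower (18.8% and 20.6% at 5 CPM). The kinesin-like axon guidance gene vab-8 (log2 fold change 0.44, SE 0.06) and the tubulin gene tba-7 (log2 fold change 0.36, SE 0.06) were higher. Lower were tbb-6 (log2 fold change -0.49, SE 0.14) and the microtubule end-binding gene ebp-2 (log2 fold change -0.37, SE 0.08). Of 16 touch receptor neuron genes 6 rose and 10 were not called, with rises of the homeobox gene mec-3 (log2 fold change 0.53, SE 0.13), which specifies these neurons, and unc-8 (log2 fold change 0.51, SE 0.10). Of 46 ciliary genes 2 rose, che-12 (log2 fold change 0.39, SE 0.07) and daf-10 (log2 fold change 0.28, SE 0.09), and 3 fell, with hyls-1 (log2 fold change -0.30, SE 0.09) and the dynein heavy chain gene che-3 (log2 fold change -0.20, SE 0.06) the largest. Their median log2 fold change was -0.08, beside -0.23 for osm-6 and 0.24 for che-2. In G protein signalling 12 of 45 rose and 5 fell. Phospholipase C beta, the target of Gq, is encoded by egl-8, which had 453 and 481 CPM in mutant and 386 and 370.2 CPM in wild-type larvae (log2 fold change 0.30, SE 0.06, edgeR adjusted p = 0.000527). The Ras gene let-60 rose (log2 fold change 0.40, SE 0.07), while the G alpha gene gpa-12 (log2 fold change -0.92, SE 0.08) and the adenylyl cyclase gene acy-4 (log2 fold change -0.31, SE 0.07) fell. Of 24 genes for transmitter receptors of the G protein-coupled type 7 rose and 1 fell, with the GABA-B receptor subunit gene gbb-2 (log2 fold change 0.49, SE 0.06) and the dopamine receptor gene dop-6 (log2 fold change 0.40, SE 0.13) higher and the glutamate receptor gene mgl-2 (log2 fold change -0.22, SE 0.06) lower. Of 29 neuronal transcription and RNA-binding factor genes 7 rose, among them egl-46 (log2 fold change 0.41, SE 0.12), and 1 fell. Among the rises named in this paragraph, mec-3, unc-8, daf-10, let-60 and gbb-2 lie on chromosome IV, as lsm-8 does. There 31% of genes with at least 5 CPM were called higher, against 16.4% outside it.

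**Figure D5:**
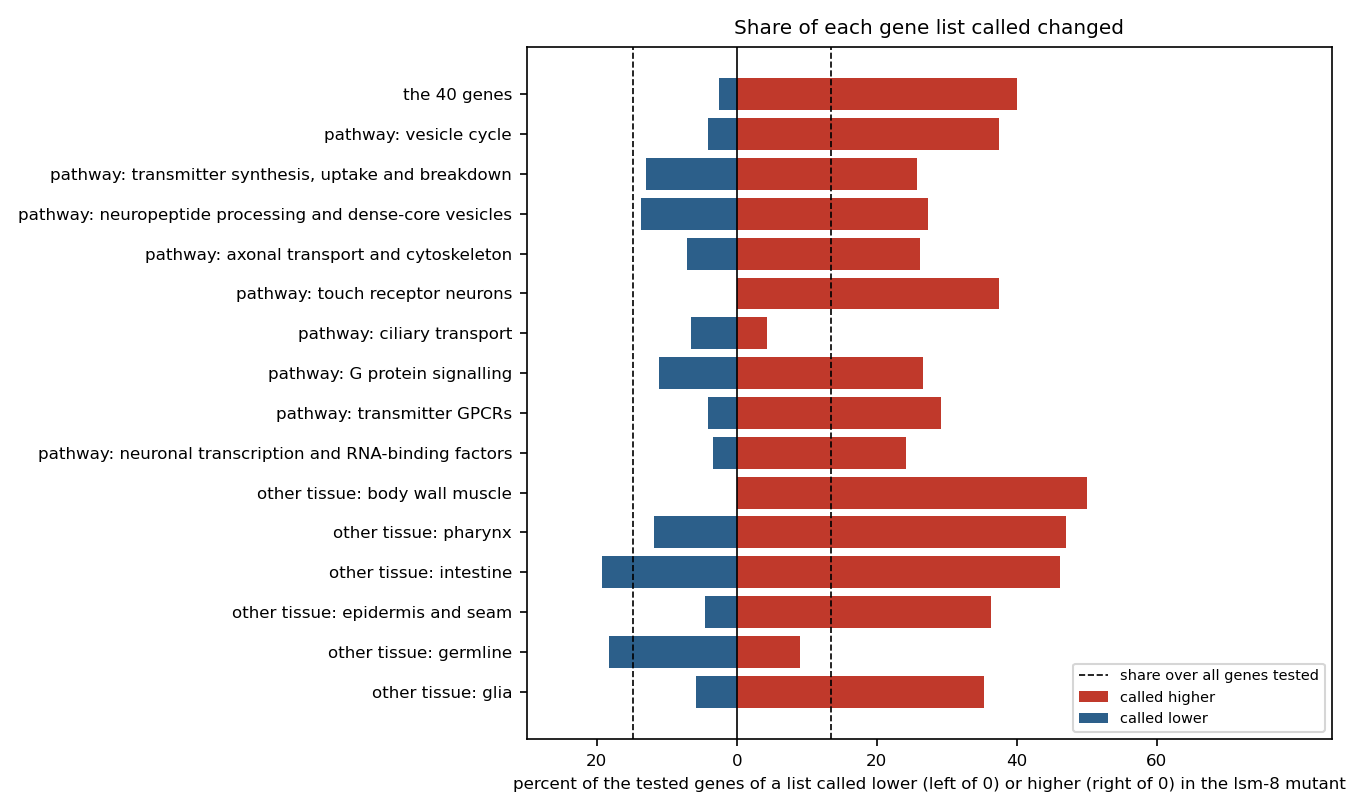
Percent of the tested genes of each list called higher (red, right of 0) or lower (blue, left of 0) in lsm-8 mutants, for the 40 genes, the other genes of their pathways and markers of other tissues, with dashed lines at the shares over all genes tested (13.5% higher and 14.8% lower). Body wall muscle, pharynx and intestine markers have larger shares called higher than the 40 genes, and ciliary and germline genes have shares called higher below the dashed line.

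Markers of other tissues moved in the same libraries, and their part in the result was not tested. Of 132 tested markers of 6 tissues, 50 rose (37.9%) and 13 fell (9.85%), with a median log2 fold change of 0.14. Of the 40 genes 40% rose and 2.5% fell, with a median of 0.13. Over all genes tested 13.5% were called higher and 14.8% lower. Body wall muscle had 14 of 28 markers higher and 14 not called. Their summed levels were 22883 and 23775 CPM in mutant and 20199 and 20006 CPM in wild-type larvae. The muscle list includes unc-54, and the red marker of the mutant allele carries the unc-54 3' UTR. Whether reads of that red marker were counted as unc-54 in the mutant libraries was not tested. The pharynx had 8 of 17 higher and 2 lower (summed 5469 and 5940.0 CPM in mutant larvae, 4912 and 4806 CPM in wild-type larvae). In the intestine 12 of 26 were higher and 5 lower (16308 and 15688 CPM in mutant larvae, 14904 and 14976 CPM in wild-type larvae). Epidermis and seam had 8 of 22 higher and 1 lower (646 and 629.9 CPM in mutant larvae, 636 and 649 CPM in wild-type larvae). Glia had 6 of 17 higher and 1 lower (525 and 526 CPM in mutant larvae, 442 and 469.9 CPM in wild-type larvae). The germline had 2 of 22 higher and 4 lower (398 and 391.7 CPM in mutant larvae, 385 and 383 CPM in wild-type larvae). The summed level of the 40 genes was 7493 and 7754 CPM in the mutant libraries and 6799 and 6856 CPM in the wild-type libraries. Of the 134 markers only nhr-73, in 3 libraries, and nos-2, in 1, had a count of 0 anywhere.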

How the data were processed

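Total RNA of L1 larvae was sequenced as stranded, 50-base single-end libraries, per the labels' protocols. The authors deposited a table of raw read counts per gene with a width for each gene, and a table of log2 values. A check of the values showed that each deposited log2 value equals log2 of the scaled count plus 8. The submitters' processing notes list Bowtie, edgeR 3.24.0 and the build ce10 but no role for any of them. How reads were assigned to genes, from which annotation and whether by strand is not given in the sources used here, and overlapping genes could share reads. In the WBcel235 annotation, used here for names, chromosomes and exon overlaps, 13 of the 40 genes share exon bases with another gene of the table, 11 of them on the opposite strand only. The largest shared part was 17% of tbh-1.

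The counts of all 4 libraries were fitted with edgeR 4.0.16 in R 4.3.3 (filterByExpr, TMM scaling, robust quasi-likelihood test, no covariate), with p-values adjusted by Benjamini-Hochberg over all 16771 genes tested. Calls were made at an adjusted p under 0.05. RPKM was computed from the TMM-scaled CPM and the deposited width. Alternatives used RLE, upper quartile and total scaling, other filters, limma 3.58.1, DESeq2 1.42.0, the deposited log2 values, a length correction, a replicate block and each library left out. At the depth of these libraries a count of 3 equals 0.0296 to 0.0591 CPM.

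The 40 genes, the lists of pathway genes and the tissue markers were chosen with earlier results of these data known. All 40 genes are named, with values in every library. From each other list the named genes are among the 2 strongest rises and 2 strongest falls among called genes at a mean of at least 1 CPM, other than the 4 plasma membrane transporters, named after their values were seen. Of 444 symbols written in the pathway and marker lists 436 were found in the table. Same-numbered libraries did not deviate together, so the replicate numbers were not used to pair them.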

Additional observations from a re-analysis of the deposited data

How the results depend on the processing

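Leaving out each library in turn, which leaves 1 in its genotype and takes the spread from the other genotype alone, gave 9 to 17 of the 40 genes higher, 0 to 1 lower and a median log2 fold change of 0.11 to 0.13. The lowest count came without wild type replicate 2. At a threshold of 0.01, 10 rose and 0 fell, where 8.71% of all tested genes were called higher and 9.38% lower. Outside chromosome IV 10 of 33 rose, where 16.4% of genes with at least 5 CPM were called higher. The fall of bas-1, the 1 gene lower, was lost (0 lower) with upper quartile scaling, library totals, DESeq2 and the deposited log2 values, and 3 genes were lower with the length correction. The median of the 40 genes was 0.13 with RLE size factors and with DESeq2, 0.16 with upper quartile scaling, 0.18 both from library totals and from the deposited log2 values, 0.12 with no filter, 0.14 with the filter at 5 CPM, 0.12 with the length correction and 0.0785 outside chromosome IV. The median of all genes was -0.01 with TMM, 0.03 with upper quartile scaling and 0.04 with library totals (4824 genes called, 60.5% higher) or the deposited log2 values (4781 called, 60.7% higher), against 4737 called and 47.7% higher with TMM. At a threshold of 0.01, 14 pathway genes and 7 markers of other tissues were lower. The cause of these shifts was not tested, apart from those set by construction (a stricter threshold, fewer genes).

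Signs turned for genes that were not called in any of the settings that turned them. With upper quartile scaling the log2 fold change was 0.0288 for snb-1, 0.0072 for unc-25, 0.0174 for tph-1 and 0.0177 for unc-104. With library totals it was 0.0441 for snb-1, 0.0227 for unc-25, 0.0102 for eat-4, 0.0335 for tph-1 and 0.0337 for unc-104. From the deposited log2 values it was 0.0429 for snb-1, 0.0223 for unc-25, 0.01 for eat-4, 0.0275 for tph-1 and 0.0321 for unc-104. For snb-1 it was 0.0039 with the filter at 5 CPM and 0.0472 with the length correction. Over left-out libraries it ran from -0.0688 to 0.0488 for snb-1, -0.0401 to 0.2130 for sng-1, -0.0613 to 0.0001 for unc-25, -0.1663 to 0.1163 for tph-1, -0.0871 to 0.0451 for unc-104 and -0.1262 to 0.0141 for unc-119. Of 640 values of single genes under the alternatives, 24 turned sign, and 16 of the 40 genes were called in no setting.

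Same-numbered libraries of the 2 genotypes did not deviate together (correlation -0.11 over 9607 genes), so the numbers are not taken to pair the samples. With the replicate number as a block, 3655 genes were called (10.5% of all tested genes higher and 11.3% lower). Of the 40 genes 11 were higher, 0 were lower, and egl-30 was called higher (edgeR adjusted p = 0.0205). With the crossed pairing, added after seeing the data, 5652 genes were called (16% of all tested genes higher and 17.7% lower). Of the 40 genes 19 were higher and 3 lower.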
